A study of Rattus norvegicus with 4 samples.

Results

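The genes described here encode brakes on mTORC1, the protein kinase complex that couples growth factors and nutrients to protein synthesis. They are Ddit4 and Ddit4l, which encode REDD1 and REDD2, the sestrin genes Sesn1, Sesn2 and Sesn3, and Deptor. Every probe set whose single platform symbol was one of these 6 names was taken, which gave 10 probe sets for the 6 genes among 20826 probe sets and 14217 genes with 1 symbol each. Sertoli cells, the somatic cells that nurse the germ cells, came from male Sprague-Dawley rats aged 20 days and were kept in serum-free Ham's F-12 medium at 32 °C for 72 h. The 2 control cultures received no treatment and the 2 cAMP cultures received cAMP, the second messenger of follicle-stimulating hormone, in a form and dose not given in the sources used here. RNA of each culture was hybridised to a one-colour Affymetrix rat array. The cells are a primary isolate, and nothing in the labels says whether replicates were separate preparations, so p-values measure only the spread between these arrays. The genes were selected on the measured signals of these same arrays, as a family with differences between cAMP and control, so their own differences are given as a description without p-values.

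mTORC1 is switched on at the lysosome by the small GTPase Rheb, and the TSC complex keeps Rheb inactive. REDD1 and REDD2 act through the TSC complex, whereas the sestrins bind GATOR2, part of the amino acid sensing machinery, and so restrain the Rag GTPases. DEPTOR binds mTOR itself. Transcription of these genes is a known point of control: Ddit4 responds to hypoxia, glucocorticoids and the stress factor ATF4, Sesn2 to ATF4, Sesn1 to p53 and Sesn3 to FOXO factors. In Sertoli cells follicle-stimulating hormone is known to act on mTORC1 through cAMP and protein kinase A.

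The promoters of the 3 brake genes with differences past the test's threshold are shown first. Whether the transcripts measured here start at these promoters was not tested. Each run is the 250 bases before the RefSeq start of the gene in assembly GRCr8, 5′ to 3′ on the gene's strand. RefSeq promoters were found for 5 of the 6 genes. Capitals mark ACGTG or GCGTG, the cores bound by hypoxia-inducible factors, on either strand.
Ddit4 (chr20:28437038-28437287, minus strand): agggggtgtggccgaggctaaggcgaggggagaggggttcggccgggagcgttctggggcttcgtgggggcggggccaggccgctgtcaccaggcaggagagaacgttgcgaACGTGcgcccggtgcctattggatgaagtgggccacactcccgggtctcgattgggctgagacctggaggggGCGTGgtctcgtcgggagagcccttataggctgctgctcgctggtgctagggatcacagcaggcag
Ddit4l (chr2:228801457-228801706, plus strand): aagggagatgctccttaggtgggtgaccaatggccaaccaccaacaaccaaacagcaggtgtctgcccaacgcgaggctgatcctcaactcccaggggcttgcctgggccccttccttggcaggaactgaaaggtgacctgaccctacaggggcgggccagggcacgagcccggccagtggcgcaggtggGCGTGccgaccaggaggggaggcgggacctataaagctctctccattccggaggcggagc
Sesn2 (chr5:150005256-150005505, minus strand): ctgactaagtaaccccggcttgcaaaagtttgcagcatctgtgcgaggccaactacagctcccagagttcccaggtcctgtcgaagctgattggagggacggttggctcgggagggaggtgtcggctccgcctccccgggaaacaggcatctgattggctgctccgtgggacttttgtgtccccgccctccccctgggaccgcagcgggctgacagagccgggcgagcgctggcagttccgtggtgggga

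The Ddit4 window held ACGTG 138 bases and GCGTG 66 bases before the start, and the Ddit4l window held GCGTG 60 bases before it. The Sesn2 window held neither. Of the windows not printed, those of Sesn1 and Sesn3 held GCGTG as well, 146 and 158 bases before the start, and no ACGTG. Over 33469 rat promoters of the same length, 16.6% held ACGTG and 25.9% held GCGTG on either strand. The cAMP response element TGACGTCA, present in 1.59% of promoters, was in none of the 5 windows, and its shorter core TGACG, present in 18.2%, was in the Sesn1 window, 61 bases before the start. The C/EBP-ATF4 motif TGATGNAA, present in 3.4%, and the FOXO motif GTAAACA, present in 3.21%, were in none of the 5. E-boxes, CANNTG, the motif of the basic helix-loop-helix factors that the series is about, were found at 2 places each in the Ddit4l and Sesn2 windows and were not found in the other 3 windows, while 65.5% of all promoters held at least 1. A stretch reading TGACGTG counts for both TGACG and ACGTG, and CACGTG for both the E-box and ACGTG. These matches describe letters in a window and not binding.

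Signals of the 10 probe sets were compared on all 4 arrays. A signal is the authors' probe set intensity on a linear scale, and the highest signal of the bacterial control probe sets, 14.2, was taken as background. Levels were not compared between probe sets, since each has its own response. Differences are cAMP minus control on the log2(signal + 16) scale, which understates changes of dim probe sets, and are given ± their standard error from limma. A difference counts as having passed where its Benjamini-Hochberg adjusted p by limma, over all 18625 tested probe sets, lay below 0.05. The 4 arrays had the same scale: their median signals lay between 31.3 and 33.7, and 64.3% to 66.4% of the probe sets lay above background. Log2 signals correlated at 0.967 within the control pair, 0.984 within the cAMP pair and 0.895 to 0.925 between groups, across genes. Actin's 3′ over 5′ signal ratio, which rises as RNA decays, was highest in control replicate 2, at 2.25, against 1.65 to 1.86 in the others. The same ratio for GAPDH was lowest in that array, at 0.90, against 0.93 to 0.97 in the others, so the ratios disagree.

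**Figure D1:**
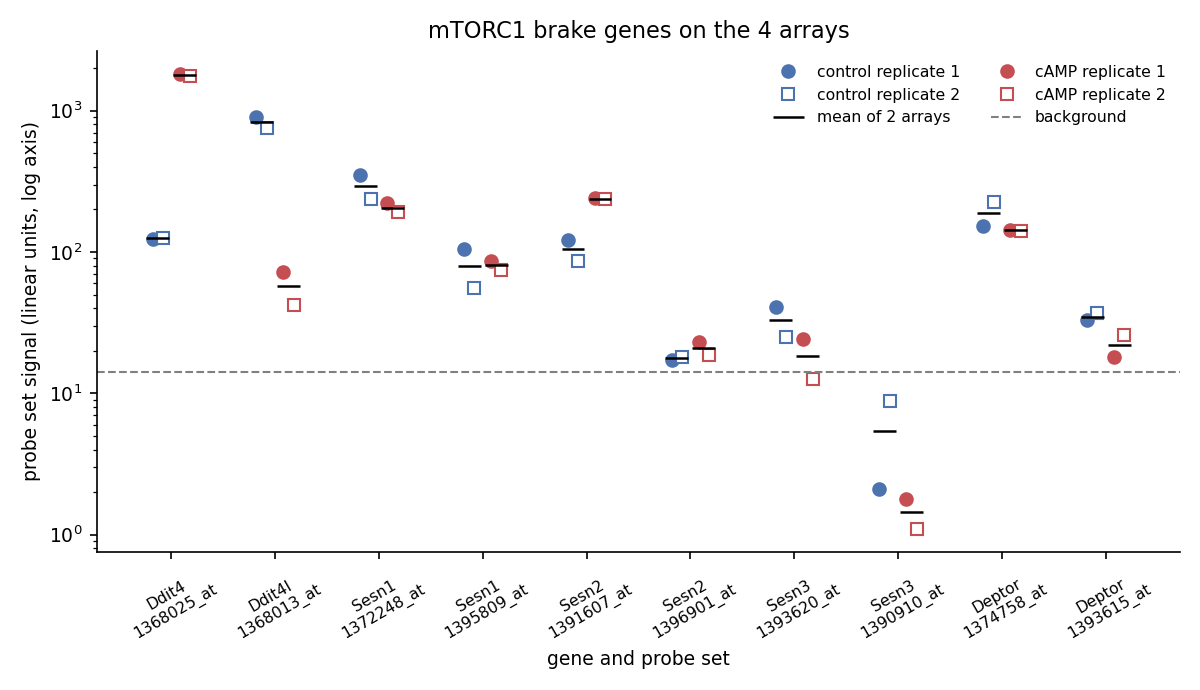
Signals of the 10 probe sets of the 6 brake genes on the 4 arrays, on a log axis, with the mean of each pair as a line and background as a dashed line. Ddit4 lies near 125 in control and at 1749.7 or more with cAMP, Ddit4l lies the other way round, and the second Sesn3 probe set is below background on every array.

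The REDD genes stood at opposite ends. Ddit4 (1368025_at) had signals of 124 and 126.6 in control and 1834.7 and 1749.7 with cAMP. Both cAMP arrays lay far above both control arrays, and within each pair the values were close. The mean went from 125.3 ± 1.84 to 1792 ± 60.1 (SD, n = 2 arrays per group), a ratio of 14.3 and a log2 difference of 3.68 ± 0.13. Among the 18625 tested probe sets this was the 32nd highest difference.

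Ddit4l (1368013_at) had signals of 903.6 and 754.3 in control and 72 and 42.5 with cAMP. The groups did not overlap, and the cAMP signals stayed above background. The mean went from 829 ± 105.6 to 57.3 ± 20.9 (SD, n = 2 arrays per group), 14.5-fold lower with cAMP, with a log2 difference of -3.55 ± 0.22. That was the 11th lowest difference of all tested probe sets. The cAMP arrays differed more from each other for Ddit4l, with an SD of 0.42 on the log2 scale, than for Ddit4, where it was 0.05. Each REDD gene is represented by 1 probe set, so no other probe set bears on either value. RNA of whole cultures was measured, so fewer cells of a type and less RNA per cell cannot be told apart.

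Among the sestrins, Sesn2 was higher with cAMP. Its lead probe set (1391607_at, the one with the highest mean) read 122.4 and 86.6 in control and 240.4 and 236.7 with cAMP. Control replicate 2 was the lowest of the 4, and the cAMP arrays were nearly equal. The mean went from 104.5 ± 25.3 to 239 ± 2.62 (SD, n = 2 arrays per group), a ratio of 2.28 and a log2 difference of 1.09 ± 0.19. The other Sesn2 probe set (1396901_at) lay just above background, at 17.2 and 18.1 in control and 23 and 18.8 with cAMP, with a difference of 0.13 ± 0.21. The increase was thus seen on the brighter probe set and did not pass on the dim one.

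Sesn1 went the other way on its lead probe set (1372248_at), which read 348.4 and 238.3 in control and 220.9 and 191.3 with cAMP. Both cAMP arrays lay below both control arrays, yet the control arrays differed from each other by more than control replicate 2 differed from the cAMP arrays. The log2 difference was -0.46 ± 0.21. The other Sesn1 probe set (1395809_at) read 104.4 and 55.3 in control and 86.9 and 75 with cAMP. There the cAMP arrays lay between the control arrays, and the difference was 0.06 ± 0.27.

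Sesn3 was dim. Its lead probe set (1393620_at) read 40.9 and 25.1 in control and 24.2 and 12.7 with cAMP. Control replicate 2 and cAMP replicate 1 were nearly equal, and cAMP replicate 2 lay below background. The difference was -0.51 ± 0.27. The other Sesn3 probe set (1390910_at) lay between 1.1 and 8.8, below background on all 4 arrays, and fell below the filter on dim probe sets.

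Deptor, whose product binds mTOR directly, had signals of 152.7 and 224.5 in control and 144 and 140.8 with cAMP (1374758_at). The cAMP arrays were nearly equal to each other, and control replicate 1 lay close above them while control replicate 2 stood higher. The log2 difference was -0.35 ± 0.21. The other Deptor probe set (1393615_at) read 32.8 and 37 in control and 18 and 25.7 with cAMP, a difference of -0.43 ± 0.22, so both Deptor probe sets were lower with cAMP without passing.

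Of the 6 brake genes, by their lead probe sets, 2 were called higher (Ddit4 and Sesn2) and 1 lower (Ddit4l), and 3 did not pass. Over all 10035 named genes tested, 15.4% were called, 8.27% higher and 7.14% lower. By probe sets, 2 of the 9 tested were higher and 1 lower, against 7.29% and 6.39% of all tested probe sets, or 13.7% in all. The groups did not overlap for 6 of 6 lead probe sets, against 61.3% of named genes, and for 8 of the 9 tested probe sets, against 58.2% of all tested. Since these values chose the genes, nothing is read from these counts. Leaving out either cAMP array ended the call of Sesn2, with 1 brake gene higher in each case. Deptor passed when control replicate 1 was left out and Sesn1 passed when control replicate 2 was, which gave 2 lower in each case. Ddit4 and Ddit4l kept their calls in these 4 fits. In each such fit 1 group is a single array, which is assumed to vary like the other group. The same arrays also chose the genes, so these calls are a description and no evidence of stability.

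**Figure D2:**
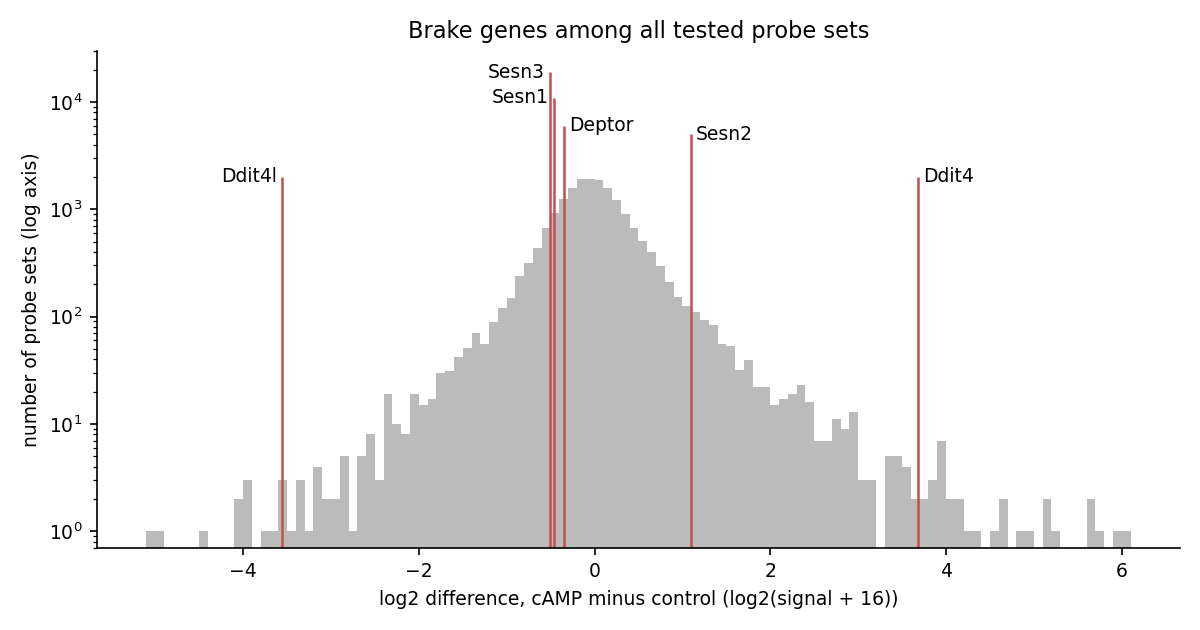
Number of tested probe sets by log2 difference, cAMP minus control (bars, log axis), with the lead probe set of each brake gene as a red line whose height has no meaning. Ddit4 at 3.68 and Ddit4l at -3.55 lie in the sparse tails, Sesn2 at 1.09 on the upper slope, and Sesn1, Sesn3 and Deptor within the main body.

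The 6 differences were set against the alternative settings. Ddit4 ranged from 3.29 to 3.83 and Ddit4l from -3.87 to -2.89, with the values nearest 0 coming from a pseudocount of 64. Sesn2 ranged from 0.61, the mean of its 2 probe sets, to 1.31 without control replicate 1. The 3 genes that did not pass kept their sign in all settings run, with Deptor nearest 0 at -0.09 without control replicate 2. The groups did not overlap on their lead probe sets. Leaving out an array, changing the pseudocount or raising values to background thus could not reverse the sign. Kept signs under those settings are no evidence of stability. Sesn1 was at -0.20 both for the mean of its probe sets and without control replicate 1.

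**Figure D3:**
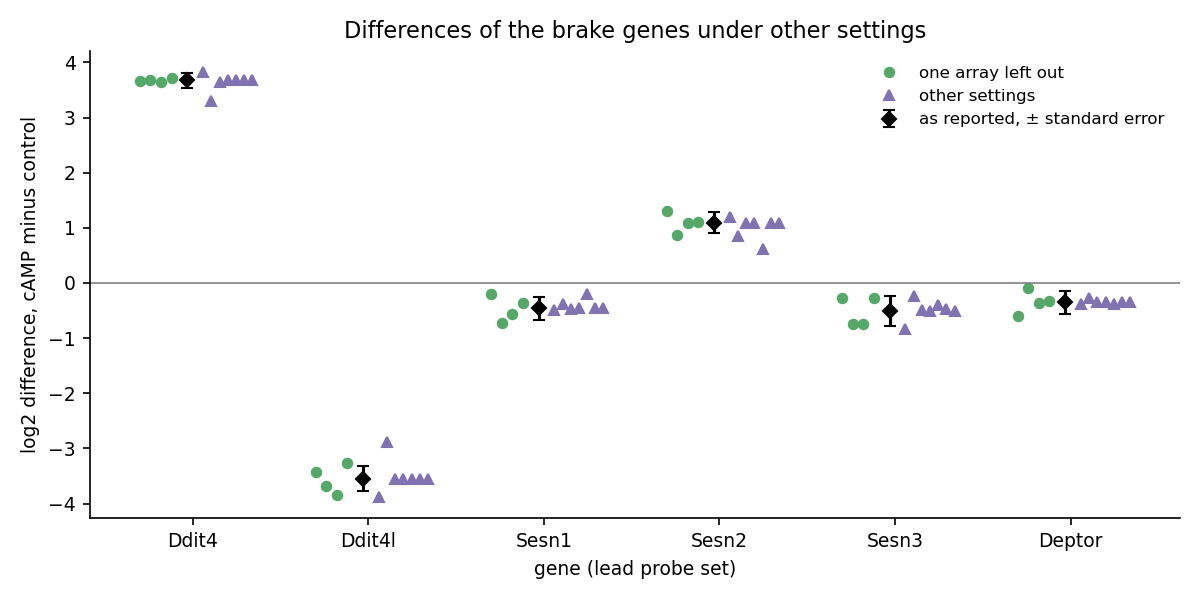
Log2 difference of each brake gene as reported (diamonds, ± standard error), with 1 array left out (circles) and under the other settings (triangles). No gene crosses 0, which leaving out 1 array could not bring about where the groups do not overlap. The spread of Sesn1, Sesn3 and Deptor over settings is wide beside their size.

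The named genes whose pattern over the 4 arrays lay nearest each brake gene were found by Euclidean distance between gene-centred log2 values, over 4 arrays. Nearest to Ddit4 were Id4 (distance 0.23), the transcription factor gene Sox7 (0.25) and the guanylate cyclase subunit gene Gucy1b1 (0.26). Id4, the gene of an inhibitory helix-loop-helix protein, went from 150 ± 11.2 to 1849 ± 104 (SD, n = 2 arrays per group). Both control arrays of Sox7 lay below background. Nearest to Ddit4l were the organic anion transporter gene Slco1a4 (0.43), Fabp3 (0.44), whose product carries fatty acids, and the peptide hormone gene Adm (0.49), so its neighbours were further away than those of Ddit4. For Sesn2 they were Mtch1 (0.04), the sterol regulator gene Srebf1 (0.05), at 181 ± 40.8 in control and 407 ± 18.9 with cAMP (SD, n = 2 arrays per group), and Amigo2 (0.06). The nearest to Sesn1 were Emp1, the polyamine synthesis gene Odc1 and Smg9 (0.06 to 0.07), to Sesn3 Slc35f2, the glutathione reductase gene Gsr and Zfp273l-ps1 (0.04 to 0.09), and to Deptor Ankrd53, Wtap and Nfia (0.02 to 0.04). With 4 points such likeness is loose.

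Other genes of the mTOR pathway were read from 7 lists grouped by role. The lists were chosen with earlier results of these data known, so their shares are a description. On these lists of 100 genes, 84 could be tested, while 6 were too dim for the filter and 10 carried no named probe set. Among those tested, 3 were higher and 6 lower and the other 75 failed to pass, a share of 10.7% against 15.4% over all named genes, with a median log2 difference of -0.04 against -0.03. The genes of the TSC complex, through which the REDD proteins act, did not pass: Tsc1 had a difference of -0.59 ± 0.16 and Tsc2 of -0.44 ± 0.17, both with the cAMP arrays below the control arrays. Tsc1 read 241.5 and 284.6 in control and 173.8 and 164.2 with cAMP, and its adjusted p by limma was 0.056. Rheb was bright on all arrays, between 2039 and 2373, and did not pass (-0.19 ± 0.11).

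Rhebl1, a close relative of Rheb, was the exception on that list. It read 61.7 and 83.5 in control and 528.6 and 420 with cAMP. The groups were far apart, and the log2 difference was 2.47 ± 0.20 (adjusted p by limma = 0.000411). Rhebl1 and Ndrg1 were called in every setting run.

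Within the mTOR complexes, Mtor (-0.22 ± 0.16), Rptor, the mTORC1 scaffold (0.03 ± 0.19), and Rictor, its mTORC2 counterpart (-0.27 ± 0.15), did not pass. The chaperone cofactor gene Telo2, needed to assemble mTOR, was the 1 of 10 tested that was lower (-0.76 ± 0.20, adjusted p by limma = 0.045). Of 8 tested genes of the GATOR complexes, which the sestrins act on, limma called 0, and 0 at an unadjusted p below 0.05, and their differences ran from -0.34 to 0.43. Among 16 tested genes of the Rag GTPases and lysosomal sensing, Rragd was lower, from 142 ± 1.56 to 81.5 ± 0.21 (SD, n = 2 arrays per group; -0.70 ± 0.17), and 15 did not pass.

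On the input side, the insulin receptor gene Insr was higher with cAMP, at 25.9 and 23.5 in control and 72 and 82.4 with cAMP (1.19 ± 0.20). Irs2, which couples that receptor to PI3-kinase, was lower (-0.98 ± 0.20), and the other 11 tested genes of this list did not pass. Its relative Irs1 was too dim for the filter and was not tested. It read 29.6 and 32.9 in control and 7 and 8.5 with cAMP, both cAMP arrays being below background. Of 9 tested genes of AMPK and its activator LKB1, which restrain mTORC1 when energy is low, the catalytic subunit gene Prkaa2 was lower. It read 255.7 and 407.4 in control and 91.6 and 117.8 with cAMP, a difference of -1.50 ± 0.24, while the other catalytic subunit gene Prkaa1 was at 0.02 ± 0.15.

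Of 23 tested genes of substrates and outputs of the mTOR complexes, 1 was higher and 2 lower. These are RNA signals and do not report the activity of either complex. Ndrg1, whose protein is a target of the mTORC2 branch, read 36.1 and 33.2 in control and 233.6 and 263.9 with cAMP (2.38 ± 0.18). The translation repressor gene Eif4ebp2 (-0.81 ± 0.17) and the initiation factor gene Eif4b (-0.57 ± 0.12) were lower. Eif4ebp1 (-0.06 ± 0.21) and Rps6kb1, the gene of the S6 kinase (0.14 ± 0.19), did not pass. These pathway counts rest on both cAMP arrays: without cAMP replicate 1 limma called 0 lower, with 11 at an unadjusted p below 0.05, and without cAMP replicate 2 it called 1, Prkaa2, while 2 were higher in each case. Without control replicate 1 they were 8 higher and 17 lower, with Tsc1 among the lower, and without control replicate 2 5 higher and 6 lower. With dim probe sets kept in the fit, 2 were lower, Eif4b and Prkaa2. With the probe set of the smallest p for each gene 6 were higher, Akt2, Igf1r and Pik3cd being added.

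**Figure D4:**
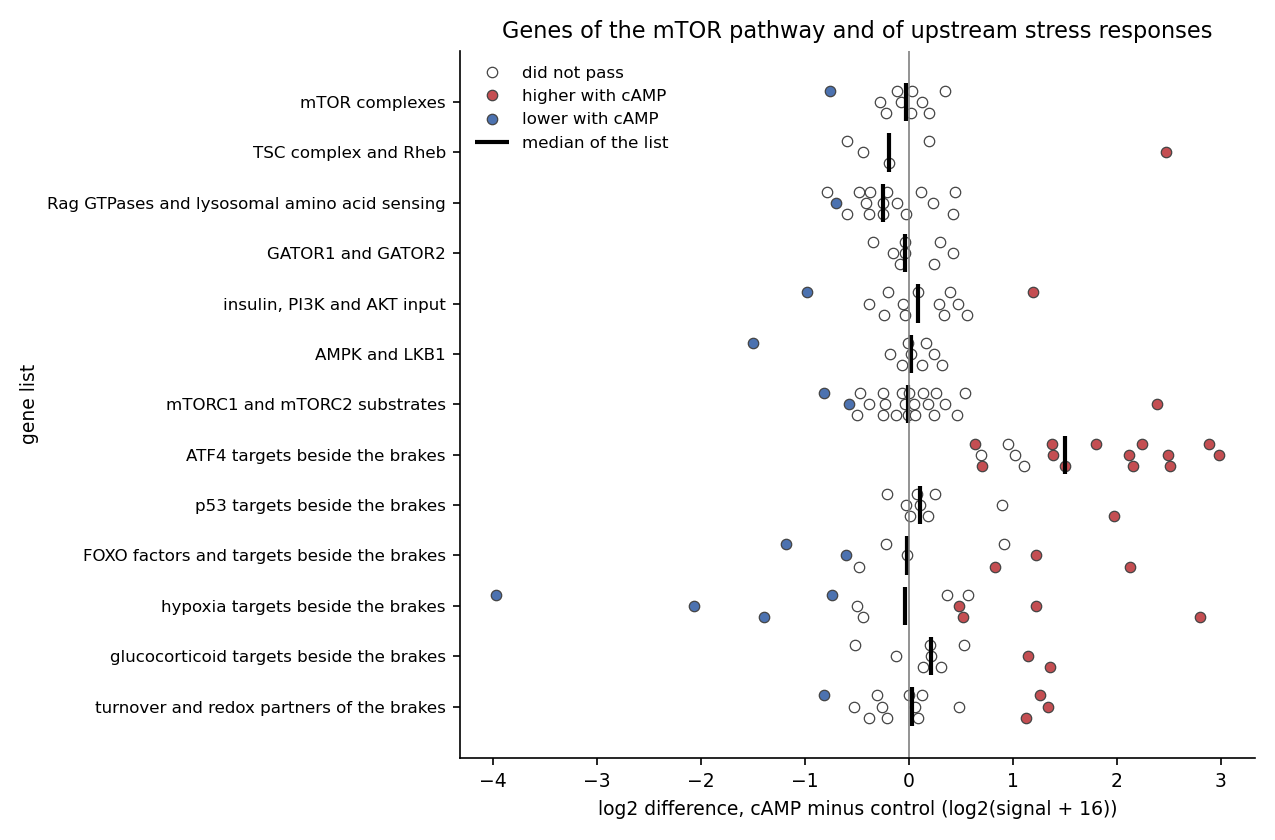
Log2 difference, cAMP minus control, of every tested gene of the 7 mTOR pathway lists (upper rows) and 6 lists of upstream regulators and partners (lower rows), with filled circles for genes that passed and a line at the median. The pathway medians lie near 0, while all 17 genes of the ATF4 list lie above 0. The lists were chosen with earlier results of these data known.

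Next came 5 lists of genes controlled by known regulators of the brakes and 1 list of turnover and redox partners of the brakes. These lists too were chosen with earlier results of these data known. Their shares are therefore a description and no independent finding. Over the 6 lists, 70 of 84 genes were tested, 26 were higher and 7 lower, a share of 47.1% beside 15.4% of all named genes. Genes of the ATF4 response, which handle amino acid shortage and stress of the endoplasmic reticulum, made up 13 of the 26: 13 of 17 were higher and the other 4 did not pass, a share of 76.5%, with differences from 0.64 to 2.98 and a median of 1.50. Atf4 read 1591.6 and 1350.6 in control and 2592.4 and 2217.8 with cAMP (0.70 ± 0.14), and it missed the threshold without either cAMP array, with no filter and with no intensity trend. The folate enzyme gene Mthfd2 went from 206 ± 18.2 to 1247 ± 23.8 (SD, n = 2 arrays per group; 2.51 ± 0.14), and the stress gene Nupr1 from 48.9 ± 9.19 to 495 ± 51.7 (2.98 ± 0.18). Asns, which makes asparagine, read 820.1 and 476.6 in control and 4767.2 and 4709.2 with cAMP (2.89 ± 0.23).

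Trib3, a pseudokinase induced by ATF4, rose by 2.16 ± 0.20 on the log2 scale. The lipoprotein receptor gene Vldlr lay below background on both control arrays and was at least 8.08-fold higher with cAMP, the cAMP mean being set against control values raised to background. Slc7a5, Slc3a2, Atf3 and Shmt2 did not pass, at 1.11 ± 0.30, 1.02 ± 0.28, 0.95 ± 0.34 and 0.69 ± 0.28. These 4 passed without control replicate 1, and also with the replicate number as a block. The list counted 8 higher without cAMP replicate 1 and 11 without cAMP replicate 2. Control replicate 2 was lower than control replicate 1 for Asns, as it was for Sesn2.

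Hypoxia genes split. Of 12 tested, 4 were higher (Vegfa, Epas1, Ldha and Hif1a) and 4 lower (Adm, Egln1, P4ha1 and Pdk1), a share of 66.7%. The angiogenic factor gene Vegfa read 37.1 and 19.8 in control and 281.3 and 293.5 with cAMP (2.80 ± 0.23), whereas Egln1, the oxygen sensor that marks HIF for decay, read 1012.7 and 808.6 in control and 212.2 and 197.2 with cAMP (-2.06 ± 0.16). Epas1, the gene of HIF-2alpha, had a difference of 1.22 ± 0.13, and Hif1a of 0.48 ± 0.12. The collagen hydroxylase gene P4ha1 fell by 1.39 on the log2 scale and Adm fell by 3.97, with 1 of the 2 cAMP arrays of Adm below background. Pdk1 was not called with no filter or with any 1 of the 4 arrays left out. Ldha and Hif1a missed the threshold when either cAMP array was left out, with no filter and with no intensity trend. Hif1a also missed it with the replicate block.

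Of 9 tested p53 targets, Cdkn1a, the gene of the cell cycle inhibitor p21, was higher (1.97 ± 0.16) and 8 did not pass, a share of 11.1%, near that of all named genes. Of 9 tested FOXO factors and targets, 3 were higher and 2 lower, a share of 55.6% against 15.4% of all named genes. The higher ones were the cell death gene Bcl2l11 (2.13 ± 0.15), Ccng2 (0.83 ± 0.13) and Pck1, which lay below background on both control arrays and was at least 3.30-fold higher. The lower ones were Foxo3 itself (-0.61 ± 0.13) and Pdk4, at least 2.81-fold lower with both cAMP arrays below background. Foxo1 did not pass (0.92 ± 0.35). With no filter neither Foxo3 nor Pdk4 was called, and with no intensity trend Foxo3 was not. Pdk4 was not called with any 1 array left out, and Bcl2l11 alone of these 5 was called without cAMP replicate 1, and again without cAMP replicate 2. Foxo1 passed without control replicate 2 and with the replicate block. Of 9 tested glucocorticoid genes, Fkbp5 (1.36 ± 0.17) and the metallothionein gene Mt2A (1.15 ± 0.18) were higher, and the receptor gene Nr3c1 did not pass (0.14 ± 0.16), a share of 22.2%, also not far from that of all named genes. Without cAMP replicate 1 limma called 0, with 2 of the list higher at an unadjusted p below 0.05, and without cAMP replicate 2 Fkbp5 alone was.

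Among 14 tested genes for turnover and redox partners of the brakes, 3 were higher and 1 lower, a share of 28.6%. Btrc, whose ubiquitin ligase targets both DEPTOR and REDD1, read 169.5 and 208.5 in control and 522.1 and 477.3 with cAMP (1.34 ± 0.16). Cul4a, another ligase subunit linked to REDD1 decay, read 343.4 and 318.5 in control and 902.3 and 739.5 with cAMP (1.26 ± 0.15). The peroxiredoxin gene Prdx3 was higher (1.12 ± 0.14), and Txnip, whose product binds REDD1, was lower (-0.82 ± 0.21). Without cAMP replicate 1, Btrc and Cul4a alone of these 4 were called. Txnip was also lost with no filter, with no intensity trend and without control replicate 2, where 4 other genes (Ddb1, Hmox1, Keap1 and Sqstm1) were lower.

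Markers of the cells in the cultures were read beside these results. All 10 Sertoli cell markers with a probe set were tested, with 4 higher and 2 lower, and their summed signals were 24626 and 26450 in control and 27542 and 27509 with cAMP. The summed signals of 6 markers of peritubular myoid cells were 600.3 and 442.8 in control and 165.5 and 215.4 with cAMP, with Tagln and Synpo2 lower and Des higher. Tagln alone, at 344.5 and 264.3 in control and 1.3 and 7.4 with cAMP, carried that drop, for the other 5 summed to 255.8 and 178.5 in control and 164.2 and 208 with cAMP, which overlap. The summed signals of 3 endothelial markers were 204.6 and 138.2 in control and 66 and 71.2 with cAMP, with Kdr lower. Without Kdr, the other 2 summed to 17.3 and 7.4 in control and 8.5 and 13.1 with cAMP. The part of any cell type in the brake gene differences was not tested. For macrophages 3 of 6 markers, for Leydig cells 3 of 6 and for endothelial cells 2 of 3 lay at or below background on every array. Summed over the 6, macrophage signals were 75.4 and 128 in control and 76.4 and 95.4 with cAMP. Without Lyz2, the other 5 summed to 28.1 and 19.4 in control and 50 and 67.8 with cAMP. The 1 macrophage marker tested did not pass, at -1.05. Leydig cell markers without Cyp11a1 summed to 52.9 and 49.5 in control and 39.2 and 31.1 with cAMP. Of 5 germ cell markers with a probe set, 3 lay at or below background and Sycp3 was bright, between 1754 and 2340. The 4 germ cell markers other than Sycp3 summed to 16.9 and 43 in control and 38.3 and 17.6 with cAMP.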

How the data were processed

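Per the labels, RNA of 2 control and 2 cAMP cultures was hybridised to 1 array each. Each array's deposited column holds linear probe set intensities. The submitters' processing notes name GCOS and MAS5 for them, with versions and settings not given in the sources used here. No genome build is named in the files. Of 31099 probe sets, 57 are controls. Of the others, 20826 have 1 symbol, 436 several and 9780 none in the platform annotation. Symbols of the pathway lists were brought up to date through RefSeq (GRCr8), where 20764 matched.

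From the intensities, log2(signal + 16) was computed without further normalization. Probe sets with a mean at or above the 40th percentile (5.10) entered a two-sided limma 3.58.1 fit under R 4.3.3, with an intensity trend in eBayes and without a replicate block. The fit was tested on simulated data with spreads drawn from limma's own estimates, so how it does on these arrays was not tested. A gene stands by its probe set with the highest mean. Background was the highest signal of 27 Bacillus control probe sets. A change against a group wholly at background is a lower bound, the ratio of geometric means with values raised to background. With 2 arrays a group, their number limits the precision.

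The members and lists were chosen with earlier results of these data known. Named are all probe sets of the members, up to 5 genes past the threshold with the smallest p per list, central genes of each complex or response, and the 3 nearest patterns. Other genes named, among them Rictor, Prkaa1, the ATF4 genes that did not pass and the markers, were chosen after their values were seen. The alternatives were other pseudocounts, quantile normalization, a replicate block, no filter, no trend, other probe sets, updated symbols, values raised to background and each array left out.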

Additional observations from a re-analysis of the deposited data

How the results depend on the processing

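The 2 groups share replicate numbers, but the labels do not say that a number marks a shared preparation, and deviations of same-numbered arrays correlated at 0.16 over the tested probe sets. With the replicate block, 1540 probe sets were higher and 1495 lower, against 1358 and 1191 without it, and the brake genes and mTOR pathway genes called were the same. In the lists of upstream regulators and partners, the block added Slc7a5, Slc3a2, Atf3, Shmt2, Plk2 and Foxo1 to the higher calls and lost Hif1a, for 31 higher and 7 lower. Over the whole array the counts ran from 396 to 2467 higher and from 314 to 2381 lower with 1 array left out, and with no filter they were 873 and 725. With a pseudocount of 1 the log2 differences were 3.83 for Ddit4 and -3.87 for Ddit4l, and with 64 they were 3.29 for Ddit4, -2.89 for Ddit4l and 0.85 for Sesn2. Quantile normalization gave 3.64 for Ddit4, and the mean over probe sets gave 0.61 for Sesn2. With 1 array left out, the brake genes called were 1 to 2 higher and 1 to 2 lower. The mTOR pathway lists then counted 2 to 8 higher and 0 to 17 lower by limma. They counted 6 higher with the probe set of the smallest p and 2 lower without the filter. The lists of upstream regulators counted 14 to 34 higher and 3 to 8 lower with 1 array left out, and 3 lower without the filter. The causes were not tested. Dim probe sets, such as those of Sesn3, limit what can be said of a small change.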
